A study of Mus musculus with 2 samples.

Results

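Macrophage-rich scar spots are the Visium spots of 2 infarcted neonatal mouse hearts in which extracellular matrix transcripts and macrophage transcripts were both high. In a Visium assay, RNA of a tissue section is captured by barcoded spots, and 1 spot covers a small region that can hold several cells of different types, so it is not a cell. In each section, spots with at least 500 UMIs (unique transcript molecules) were ordered by how large a share of UMIs came from 8 matrix genes, Col1a1, Col1a2, Col3a1, Postn, Fn1, Cthrc1, Tnc and Lox, and the fifth with the largest share was taken. Within this matrix-rich set, the spots at or above the median share of 10 macrophage genes, Cd68, Csf1r, C1qa, C1qb, C1qc, Lyz2, Ctss, Tyrobp, Fcer1g and Laptm5, were kept. This gave 166 of 1662 spots: 85 of 851 in the PD1 KO section and 81 of 811 in the PD1 Het section. They were set against the remaining 766 PD1 KO and 730 PD1 Het spots, and against the other part of the matrix-rich set, the 85 PD1 KO and 81 PD1 Het macrophage-poor spots, which also count among the remaining ones. The groups were 1 heart section from a PD1 KO (PD1 -/-) mouse and 1 from a PD1 Het (PD1 +/-) mouse. Both were C57BL/6 animals in which the left anterior descending coronary artery was ligated at postnatal day 2 to cause myocardial infarction, with collection 7 days later, so neither group is wild type and neither is uninjured. With 1 section per group there is no replicate, so no test between groups and no p-value was computed.

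After an infarct, monocytes and macrophages clear dead cardiomyocytes by phagocytosis and lysosomal digestion, while activated fibroblasts lay down collagen and matricellular proteins that form the scar. Macrophages also signal to fibroblasts through growth factors and secreted phosphoproteins, and present antigen to helper T cells on MHC class II. Resident cardiac macrophages, which in mice are known by genes such as Lyve1, Folr2, F13a1 and Mrc1, and recruited, injury-associated macrophages, known by genes such as Spp1, Gpnmb, Trem2 and Lgals3, are usually described as separate states. PD-1, encoded by Pdcd1, is an inhibitory receptor best known from activated T cells. How it bears on the heart after an infarct is the question that the comparison of the genotypes addresses.

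The PD1 KO section had more UMIs per spot than the PD1 Het section. The macrophage-rich scar spots held 1751678 UMIs in the PD1 KO section, and a typical (median) spot held 21381 UMIs of 5583 genes. In the PD1 Het section they held 1019030 UMIs, and the median spot held 12946 UMIs of 3770 genes. The mitochondrial share was 10.2% of these UMIs in the PD1 KO section and 16.2% in the PD1 Het section, against 16.3% and 26.5% in the remaining spots of the same sections. A count of 0 UMIs allows up to 3 counts, which is 1.71 CPM (UMIs of a gene per 1000000 UMIs of the spot set) in the PD1 KO and 2.94 CPM in the PD1 Het macrophage-rich scar spots. Pdcd1, the targeted gene, had 0 UMIs in the macrophage-rich, macrophage-poor and remaining spots of both sections, so it does not check the genotype labels. The sections also differed in sex-linked transcripts: Xist had 1 UMI in the PD1 KO section and 541 in the PD1 Het section, and 4 Y-linked genes had 2900 and 1 UMIs. Genotype, sex, animal and library cannot be told apart. The sections shared 225 array barcodes, 2 of them among the macrophage-rich scar spots of both, and since barcodes mark array positions this is no sign of shared cells. Intervals below are 95% counting intervals, which cover counting error only.

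The genes that chose the spots describe them and support nothing further, and since the same counts set the choice, every ratio to other spots of a section is a description too. The median share of matrix genes was 1.81% in the PD1 KO macrophage-rich scar spots and 1.03% in the PD1 Het ones. That of the macrophage genes was 0.153% in the PD1 KO section and 0.107% in the PD1 Het section. The cut-offs differed accordingly. The last spot inside the matrix-rich set and the first outside it had 0.896% and 0.891% matrix UMIs in the PD1 KO section, and 0.580% and 0.580% in the PD1 Het section. On the macrophage share the corresponding spots had 0.0798% and 0.0795% in the PD1 KO section and 0.0499% and 0.0494% in the PD1 Het section. Among the marker genes, Col1a1 had 5809 against 1072 CPM in the remaining spots of the PD1 KO section, and 2503 against 676 CPM in those of the PD1 Het section. Likewise Postn, which encodes the wound protein periostin, had 2851 against 775 CPM in the PD1 KO and 1492 against 507 CPM in the PD1 Het section, and Fn1 (fibronectin) had 2009.5 against 453 and 874 against 328 CPM. The lysozyme gene Lyz2 had 752 against 82.8 CPM in the PD1 KO section and 300.3 against 63.2 CPM in the PD1 Het section. Cathepsin S (Ctss) had 227 against 21.1 and 40.2 against 6.87 CPM, Cd68 had 53.7 against 5.93 and 18.6 against 5.09 CPM, and Csf1r, the receptor for the macrophage growth factor CSF1, had 71.9 against 19.5 and 79.5 against 20.1 CPM. Spot positions were not used here, so the name scar rests on transcripts alone.

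**Figure D1:**
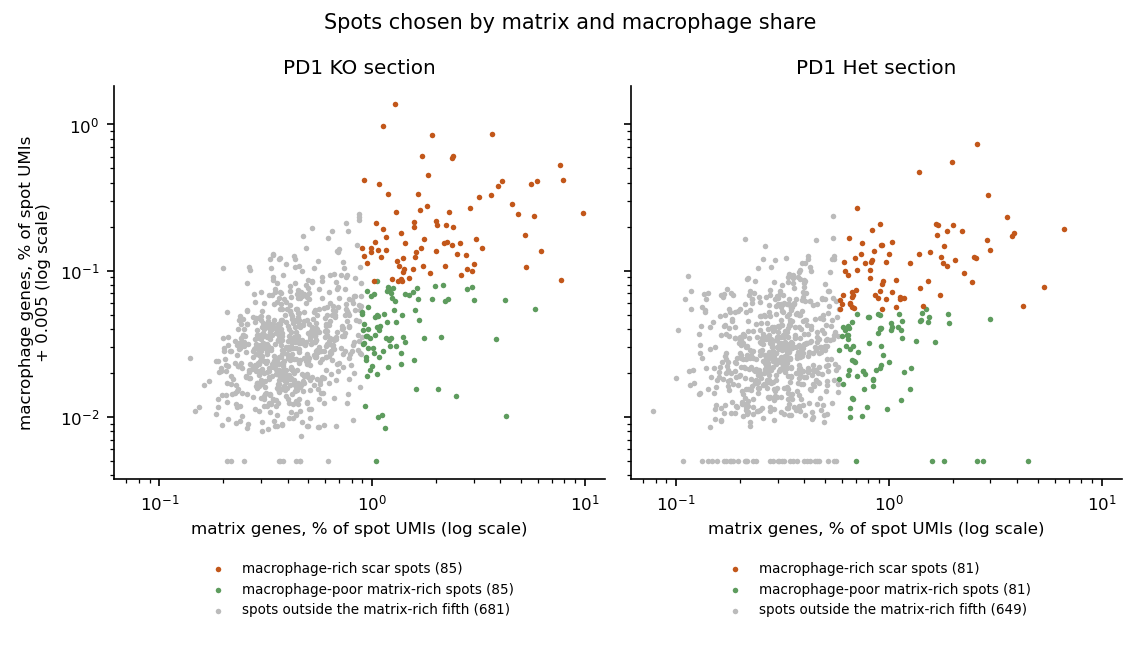
Share of UMIs from the 8 matrix genes (x axis, percent, log scale) and from the 10 macrophage genes (y axis, percent plus 0.005, log scale) in each spot, with the PD1 KO section at left and the PD1 Het section at right. Orange points are the 85 PD1 KO and 81 PD1 Het macrophage-rich scar spots, green points the macrophage-poor matrix-rich spots and grey points all other kept spots; the chosen region begins at a lower share on both axes in the PD1 Het section.

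Macrophage and myeloid markers that the rule did not use were higher in the macrophage-rich scar spots than in the remaining spots of both sections. The UMIs of 22 such markers summed to 798, 199.9 and 159 CPM in the macrophage-rich, macrophage-poor and remaining spots of the PD1 KO section, and to 387, 141 and 119.9 CPM in the PD1 Het section. The values below are relative log2 ratios, that is the log2 ratio of CPM less that of the median gene, which was itself 0.23 higher in the PD1 KO and 0.29 higher in the PD1 Het macrophage-rich scar spots. A gene was called when it had at least 100 UMIs in the compared spots and differed from the median gene by at least 1.5-fold in either direction. Of the tested markers of this list, 18 of 18 were called higher in the PD1 KO section, against 11.5% of 10784 genes tested, and 6 of 6 in the PD1 Het section, against 11.4% of 8592. Mpeg1, which encodes a pore-forming protein of phagocytes, had 103, 19.7 and 10.8 CPM in the 3 spot sets of the PD1 KO section and 30.4, 4.04 and 5.26 CPM in those of the PD1 Het section. Adgre1, the gene of the macrophage surface protein F4/80, had 37.1, 7.71 and 8.54 CPM in the PD1 KO and 21.6, 5.66 and 6.19 CPM in the PD1 Het spot sets. Both genes had their highest level in the macrophage-rich scar spots of each section, with relative log2 ratios to the remaining spots of 3.03 (2.75 to 3.32) in PD1 KO and 2.24 (1.57 to 2.89) in PD1 Het for Mpeg1, and of 1.89 and 1.51 for Adgre1. Because the shares of higher and lower calls depend on the scaling, higher calls made up 52.8% of all calls in the PD1 KO section, but 81.4% on plain CPM, 68.8% on CPM without mitochondrial genes, 41.3% with edgeR's TMM factors and 41.0% with median-of-ratios factors. In the PD1 Het section they made up 56.6%, and 89.9%, 72.3%, 39.8% and 40.4% on those scalings. In spots of mixed cells, more cells of a type and more RNA per cell cannot be told apart.

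Spp1, which encodes the secreted phosphoprotein osteopontin, had the largest ratio to the remaining spots among genes that had at least 100 UMIs in each section, ranked by the section with the smaller ratio. It had 245, 28.9 and 12 CPM in the macrophage-rich, macrophage-poor and remaining spots of the PD1 KO section and 144, 17.8 and 6.10 CPM in the PD1 Het section. Its relative log2 ratio to the remaining spots was 4.13 (3.91 to 4.36) in the PD1 KO section and 4.27 (3.86 to 4.70) in the PD1 Het section, which is 17.5-fold and 19.3-fold. Within the macrophage-rich scar spots its level ran from 0 to 5984 CPM per spot with a median of 103 in the PD1 KO section, and from 0 to 4714 CPM with a median of 0 in the PD1 Het section. The transcript was concentrated in a few spots: the 5 spots with the most Spp1 held 55.8% of 430 UMIs in PD1 KO and 72.1% of 147 UMIs in PD1 Het. Without the top spot of each set the ratios were 3.67 in the PD1 KO and 3.52 in the PD1 Het section. After every spot was thinned to 5000 UMIs, Spp1 was found in 40.5%, 15.3% and 7.46% of macrophage-rich, macrophage-poor and remaining PD1 KO spots, and in 18.6%, 9.21% and 3.03% of PD1 Het spots. Without thinning, the shares in the macrophage-rich scar spots were 71.8% in PD1 KO and 33.3% in PD1 Het. Thinning left out 1 PD1 KO and 11 PD1 Het macrophage-rich scar spots that were shallower.

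Gpnmb, Trem2 and Apoe were likewise highest in the macrophage-rich scar spots; Gpnmb and Trem2 were picked from the list of monocyte and injury macrophage genes after their values were seen. Gpnmb, a glycoprotein gene of lysosome-rich phagocytes, had 142, 11.6 and 7.03 CPM in the 3 PD1 KO spot sets and 43.2, 1.62 and 2.54 CPM in the PD1 Het ones, and relative log2 ratios to the remaining spots of 4.11 (3.82 to 4.41) in PD1 KO and 3.79 (3.09 to 4.51) in PD1 Het. Trem2, a lipid-sensing receptor gene, had 57.7, 11.6 and 7.21 CPM in the PD1 KO and 25.5, 5.66 and 4.75 CPM in the PD1 Het spot sets. Apoe, which encodes a lipid carrier and was listed with the lysosomal genes, had 1696, 550.0 and 275 CPM in the PD1 KO and 1471, 568 and 302 CPM in the PD1 Het spot sets. Unlike Spp1 it was spread over the spots: it was found in 85 of 85 PD1 KO and 80 of 81 PD1 Het macrophage-rich scar spots, with spot medians of 1418 and 1195 CPM. Of the 18 listed monocyte and injury macrophage genes, 8 of 10 tested were called higher in the PD1 KO and 3 of 6 in the PD1 Het section. Among all genes tested these shares were 11.5% and 11.4%. This list had median relative log2 ratios of 1.86 in PD1 KO and 0.58 in PD1 Het. Its member Lpl, a lipoprotein lipase gene that cardiomyocytes express too, was not higher, at 877 against 1065 CPM in the remaining spots in PD1 KO and 720.3 against 879.6 CPM in PD1 Het.

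Lysosomal and phagocytic genes were higher as a group. The 20 listed genes summed to 8537, 5189 and 4158 CPM in the 3 PD1 KO spot sets and to 6565, 4454 and 3805 CPM in the PD1 Het ones. Of the tested genes 16 of 20 were called higher and 1 of 20 lower in the PD1 KO section, with a median relative log2 ratio of 0.88. In the PD1 Het section 11 of 20 were higher and 1 of 20 lower, with a median of 0.64. Among all genes tested, 11.5% were called higher and 10.3% lower in PD1 KO, and 11.4% higher and 8.76% lower in PD1 Het. The cysteine protease gene Ctsk had relative log2 ratios of 1.92 in PD1 KO and 1.41 in PD1 Het. Psap, which encodes the precursor of the saposins, had 0.52 and 0.11 and was not called in either section. Resident macrophage genes were also higher, with a sum ratio of 0.60 in PD1 KO and 0.76 in PD1 Het, against 0.81 and 0.50 for the lysosomal list. The 15 listed resident genes summed to 808, 579 and 456 CPM in PD1 KO and 821, 546 and 396 CPM in PD1 Het spots, and 2 of 8 tested genes were called higher in the PD1 KO section and 7 of 8 in the PD1 Het section. Among the genes that define resident macrophages, Lyve1 had 4 UMIs in the PD1 KO and 5 in the PD1 Het macrophage-rich scar spots. Timd4 had 0 UMIs in PD1 KO and 2 in PD1 Het, and Cd163 had 0 and 2.

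MHC class II genes were higher than in the remaining spots of both sections. They summed to 583, 55.4 and 59.8 CPM in the 3 PD1 KO spot sets, a relative log2 ratio to the remaining spots of 3.06 (2.94 to 3.18), with 5 of 5 tested genes called higher. In the PD1 Het section they summed to 107, 38.8 and 30.3 CPM, a ratio of 1.53 (1.21 to 1.84), and the invariant chain gene Cd74 was the single gene with enough UMIs to be tested, at 1.63. MHC class I genes were called higher for 7 of 11 in the PD1 KO and 3 of 8 in the PD1 Het section. Of the interferon gamma response genes 1 of 10 were called higher in PD1 KO, near the 11.5% of all genes tested. In PD1 Het, where that share was 11.4%, 2 of 3 were called higher. Of the type I interferon response genes 3 of 9 were called higher in PD1 KO and 2 of 4 in PD1 Het.

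Complement components and receptors were called higher for 7 of 8 in the PD1 KO and 4 of 5 in the PD1 Het section, and Serping1, the C1 inhibitor gene, had 168, 105 and 55.0 CPM in PD1 KO and 229, 158 and 70.2 CPM in PD1 Het spot sets. Among chemokines 4 of 7 were called higher and 1 of 7 lower in PD1 KO, and 1 of 2 higher in PD1 Het. Ccl8, a monocyte-attracting chemokine, had most of its UMIs in these spots, with 50 UMIs in the macrophage-rich, 3 in the macrophage-poor and 26 in all remaining PD1 KO spots, and 10, 0 and 0 in the PD1 Het spots. Cxcl16, another chemokine, had relative log2 ratios of 1.35 in PD1 KO and 0.99 in PD1 Het, whereas Cxcl12, a stromal chemokine, had 0.21 and 0.26 and was not called. Growth factors and their receptors were called higher for 8 of 16 in PD1 KO and 7 of 14 in PD1 Het, against 11.5% and 11.4% of all genes tested. Ccn2, the connective tissue growth factor gene, had 182, 176 and 72.9 CPM in PD1 KO and 76.5, 62.2 and 32.1 CPM in PD1 Het. Tgfb3, a TGF-beta gene, had 151, 93.9 and 24.6 CPM in PD1 KO and 54.0, 50.9 and 18.2 CPM in PD1 Het.

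**Figure D2:**
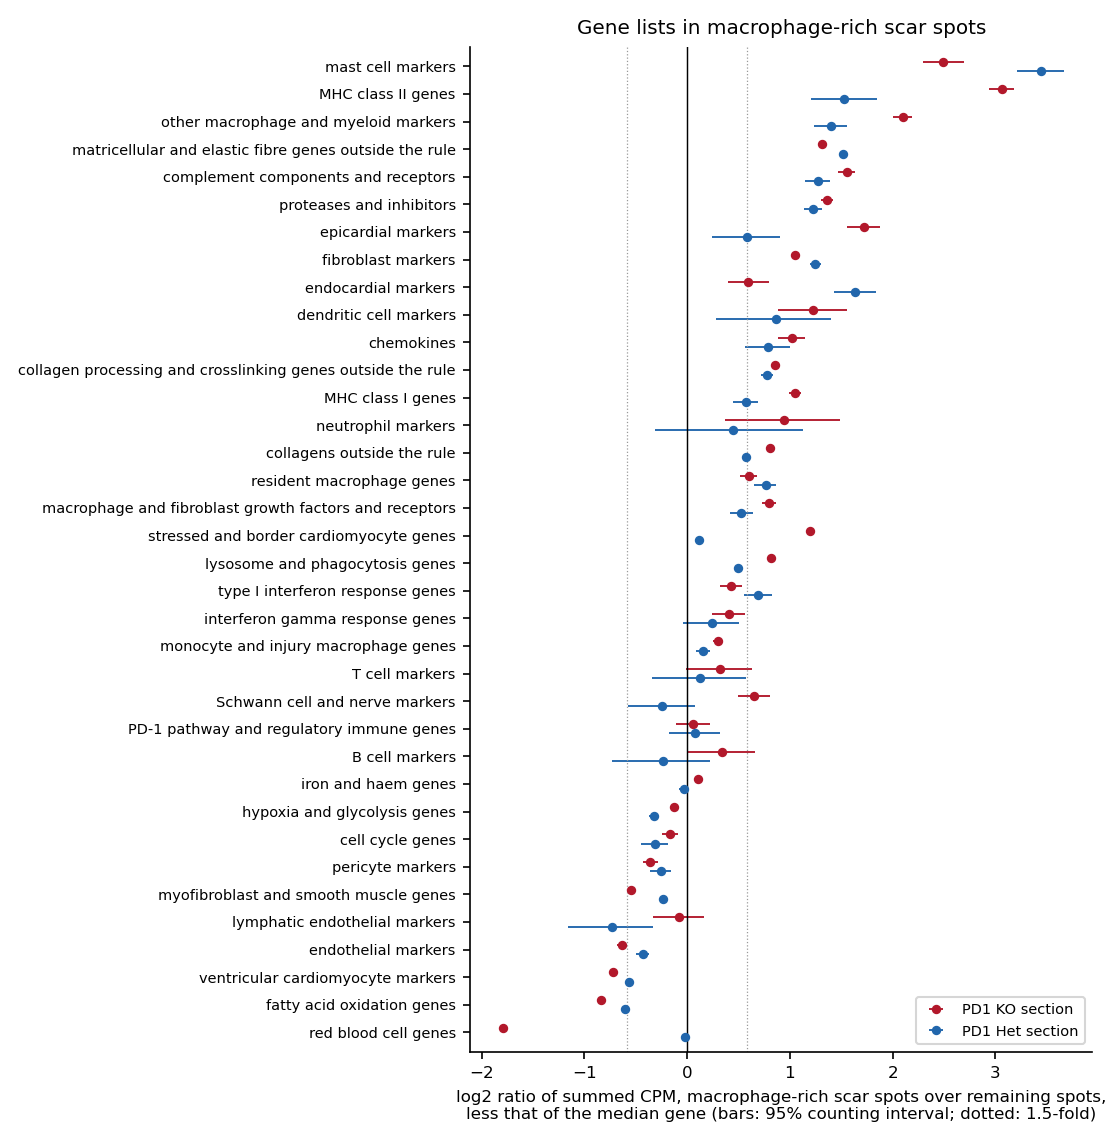
Relative log2 ratio of summed CPM between macrophage-rich scar spots and remaining spots for each gene list with at least 20 UMIs in both sections, with PD1 KO in red above PD1 Het in blue; bars are 95% counting intervals, the solid line is the median gene and dotted lines mark 1.5-fold. MHC class II, mast cell and other myeloid lists lie furthest to the right in PD1 KO, mast cell markers lie furthest to the right in PD1 Het, and ventricular cardiomyocyte and fatty acid oxidation lists lie left of 0 in both sections.

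Matrix genes outside the rule were also high, which is given as a description since the spots were chosen by related genes. Of the tested matricellular and elastic fibre genes 19 of 19 were called higher in the PD1 KO section and 18 of 18 in the PD1 Het section. For the counts in this paragraph, the shares of all genes tested were 11.5% higher and 10.3% lower in PD1 KO. In PD1 Het they were 11.4% higher and 8.76% lower. Among collagens outside the rule 12 of 15 were called higher in PD1 KO and 10 of 14 in PD1 Het, and among proteases and their inhibitors 9 of 10 and 6 of 7. Fmod, which encodes the collagen-binding proteoglycan fibromodulin, had 178, 106 and 16.3 CPM in the PD1 KO and 85.4, 52.5 and 8.31 CPM in the PD1 Het spot sets, with relative log2 ratios to the remaining spots of 3.22 (3.0 to 3.45) and 3.07 (2.64 to 3.5). Col12a1, a collagen that associates with fibrils, had 239, 183 and 28.5 CPM in PD1 KO and 52.0, 40.4 and 8.73 CPM in PD1 Het spots. Their ratios to the macrophage-poor spots were smaller, at 0.66 in PD1 KO and 0.58 in PD1 Het for Fmod and 0.29 and 0.25 for Col12a1. Further genes with large ratios in both sections encode the latent TGF-beta binding protein Ltbp2 (3.01 in PD1 KO and 2.65 in PD1 Het), the thrombospondin Thbs4 (2.95 and 2.14) and the secreted WNT modulator Sfrp2 (2.49 and 2.81). Ratios between 1.91 and 2.35 were found for Enpp1, a pyrophosphate-generating enzyme gene, Dkk3, Pdgfrl, Srpx2 and the collagen gene Col8a1. Collagen processing and crosslinking genes were called higher for 11 of 13 in PD1 KO and 7 of 12 in PD1 Het, with the lysyl oxidase-like gene Loxl1 at 1.45 and 1.66. Myofibroblast and smooth muscle genes were called higher for 7 of 11 and lower for 2 of 11 in PD1 KO, and higher for 5 of 10 in PD1 Het. The sum of this list was 7306 against 9149.8 CPM in PD1 KO and 8212 against 7916 CPM in PD1 Het, and its ratios relative to the median gene were negative, at -0.55 and -0.24. Acta2, the smooth muscle actin gene, was not called, with 510.4, 491 and 393 CPM in the PD1 KO and 504, 487 and 373 CPM in the PD1 Het spot sets. Eln, the elastin gene, had 2377, 2076 and 680.2 CPM in the PD1 KO and 4153, 2322 and 574 CPM in the PD1 Het spot sets.

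Mast cell proteases were among the transcripts with the largest ratios. The 6 mast cell markers summed to 181, 40.0 and 27.5 CPM in the 3 PD1 KO spot sets and 344, 61.4 and 25.9 CPM in the PD1 Het ones. Cma1, which encodes chymase, had relative log2 ratios to the remaining spots of 2.98 (2.63 to 3.32) in PD1 KO and 3.61 (3.25 to 3.97) in PD1 Het. Mcpt4, another mast cell protease gene, had 3.45 (2.99 to 3.90) and 4.81 (4.18 to 5.48). Kit, the stem cell factor receptor that mast cells share with other cells, had 9.70, 13 and 12.2 CPM in PD1 KO and 8.83, 9.70 and 7.71 CPM in PD1 Het spots and was not called. Mast cell protease genes, like haemoglobin genes, resemble each other, so reads between them may be assigned uncertainly. The signal came from few spots: mast cell UMIs were present in 39 of 85 PD1 KO and 29 of 81 PD1 Het macrophage-rich scar spots, and the top 5 spots held 77.6% and 78.3% of them. Without the top spot of each set, the ratio of Cma1 was 1.89 in the PD1 KO and 3.41 in the PD1 Het section.

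Cardiomyocyte transcripts were lower but abundant. The 12 ventricular cardiomyocyte markers summed to 59287, 69673 and 83632 CPM in the macrophage-rich, macrophage-poor and remaining spots of the PD1 KO section and to 67903, 71140.3 and 82388 CPM in the PD1 Het section. Of them 10 of 12 were called lower in the PD1 KO section, against 10.3% of genes tested, and 5 of 12 in the PD1 Het section, against 8.76%. Fatty acid oxidation genes, the main fuel pathway of heart muscle after birth, were called lower for 11 of 12 in PD1 KO and 9 of 12 in PD1 Het, with the trifunctional protein subunit gene Hadha at -0.97 and -0.62. The genes lowest in both sections included Adhfe1, an alcohol dehydrogenase gene, at -1.79 in PD1 KO and -1.62 in PD1 Het, and the mitochondrial fatty acid enzyme genes Acot2 (-1.11 and -1.41) and Acsf2 (-1.15 and -1.12). Strit1, which encodes a micropeptide that raises the activity of the muscle calcium pump, had -1.14 and -1.55, and Tspan15, Dach1, Magix, Slc28a2, Sult1a1 and Cyp4b1 lay between -1.79 and -1.10. Hypoxia and glycolysis genes were called higher for 1 of 15 in PD1 KO, and higher for 1 of 14 and lower for 2 of 14 in PD1 Het, and iron and haem genes higher for 3 of 8 and lower for 1 of 8 in PD1 KO, and higher for 2 of 6 and lower for 1 of 6 in PD1 Het. Over all genes tested, 11.5% were called higher in PD1 KO and 11.4% in PD1 Het. Stressed and border cardiomyocyte genes had members in the other direction: 6 of 12 were called higher in the PD1 KO and 4 of 12 in the PD1 Het section, and Nppa, which encodes atrial natriuretic peptide, had 8553, 9849 and 1559 CPM in PD1 KO and 1163, 1079.9 and 288 CPM in PD1 Het spot sets. Its ratio to the macrophage-poor spots was -0.29 in PD1 KO and -0.01 in PD1 Het.

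Markers of other cell types were mixed. Endothelial markers were called lower for 5 of 12 in the PD1 KO and 3 of 12 in the PD1 Het section. Fibroblast markers were higher for 7 of 12 in PD1 KO and 10 of 11 in PD1 Het, against 11.5% and 11.4% of all genes tested. The tested members included Mgp, the matrix Gla protein gene, at 2003 against 575 CPM in PD1 KO and 1658 against 458 CPM in PD1 Het. Red blood cell genes summed to 2786, 6869 and 8264 CPM in the PD1 KO spot sets, with 5 of 5 called lower, and to 9495, 11486 and 7856 CPM in the PD1 Het spot sets, where the top 5 macrophage-rich scar spots held 51.2% of them. Epicardial markers summed to 244, 159.9 and 63.4 CPM in the PD1 KO and 87.3, 116 and 47.7 CPM in the PD1 Het spot sets, and endocardial markers to 136, 203 and 77.3 CPM in PD1 KO and 259, 200.5 and 68.2 CPM in PD1 Het. Pericyte markers were called lower for 2 of 7 in PD1 KO and 2 of 7 in PD1 Het, against 10.3% and 8.76% of all genes tested. Lymphatic markers had 150 UMIs in PD1 KO and 54 in PD1 Het macrophage-rich scar spots. Lymphoid signal was sparse. Markers of T cells summed to 52.5, 38.0 and 36.0 CPM in PD1 KO and 45.1, 33.1 and 33.7 CPM in PD1 Het spot sets. The defining T cell gene Cd3e had 0 UMIs in the macrophage-rich scar spots of both sections, and Trac had 9 UMIs in the PD1 KO and 3 in the PD1 Het section. B cell markers summed to 49.1, 36.6 and 33.3 CPM in PD1 KO and 41.2, 50.1 and 39.8 CPM in PD1 Het, and those of NK cells had 20 UMIs in the PD1 KO and 3 in the PD1 Het macrophage-rich scar spots, with Nkg7 at 0 in both. Neutrophil markers had 33 UMIs in PD1 KO and 20 in PD1 Het. Dendritic cell markers summed to 52.0, 17.8 and 19.0 CPM in PD1 KO and 32.4, 10.5 and 14.6 CPM in PD1 Het spot sets. Schwann cell and nerve markers had 399 UMIs in PD1 KO and 87 in PD1 Het, with Sox10 at 0 in both.

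Against the macrophage-poor spots of the same matrix-rich set, few genes differed. In the PD1 KO section 204 of 5623 tested genes (3.63%) were called higher and 88 (1.57%) lower, and in the PD1 Het section 92 of 3013 (3.05%) higher and 42 (1.39%) lower. The median gene was 0.09 higher on the log2 scale in the PD1 KO and 0.12 higher in the PD1 Het macrophage-rich scar spots. Higher calls made up 69.9% of all calls in the PD1 KO section, and 89.6% on plain CPM, 78.1% on CPM without mitochondrial genes, 60.3% with TMM factors and 53.8% with median-of-ratios factors. In the PD1 Het section they made up 68.7%, and 89.5% on plain CPM, 70.8% on CPM without mitochondrial genes, 58.6% with TMM factors and 65 of 130 calls with median-of-ratios factors. Spp1 again had the largest ratio over both sections, 3.0 (2.60 to 3.41) in PD1 KO and 2.90 (2.25 to 3.62) in PD1 Het. Cma1 followed with 2.11 (1.54 to 2.72) and 2.23 (1.69 to 2.81), and Apoe with 1.53 (1.43 to 1.63) and 1.26 (1.13 to 1.39). The other genes of the ranked set were Pf4, a platelet factor gene that mouse resident macrophages express (0.79 in PD1 KO and 1.79 in PD1 Het), Tgfbi, an adhesion protein gene induced by TGF-beta (1.42 and 0.74), and Ftl1, the ferritin light chain gene (0.87 and 0.70). Anxa1, the extracellular superoxide dismutase gene Sod3, the interferon-inducible gene Ifi27l2a and Fxyd5 lay between 0.71 and 0.89. Among the lowest genes, Acot2 had -0.64 in PD1 KO and -0.88 in PD1 Het, and Txlnb, Tuba8, Mrps28, Naa20, Pigp, Ptpn11, Adsl, Hopx and Fam210a lay between -0.73 and -0.42. Acot2 and Naa20 were at 0.03 and 0.10 in PD1 Het when spots were ranked after thinning. MHC class II genes had 1022 UMIs in the macrophage-rich and 115 in the macrophage-poor PD1 KO spots, and 109 and 48 in the PD1 Het ones. Sparse genes reach the UMI minimum here through the spot set where they are high. Counts of called immune genes are therefore given with no reading, and the ranking that Spp1 and Cma1 lead is a description. Of the other myeloid markers 7 of 7 were called higher in PD1 KO, of the lysosomal genes 7 of 20 in PD1 KO and 2 of 16 in PD1 Het, and of the MHC class I genes 4 of 4 and 0 of 4. Matricellular genes were called higher for 3 of 18 in PD1 KO and 4 of 17 in PD1 Het, and none of the 12 ventricular cardiomyocyte markers was called in either section.

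**Figure D3:**
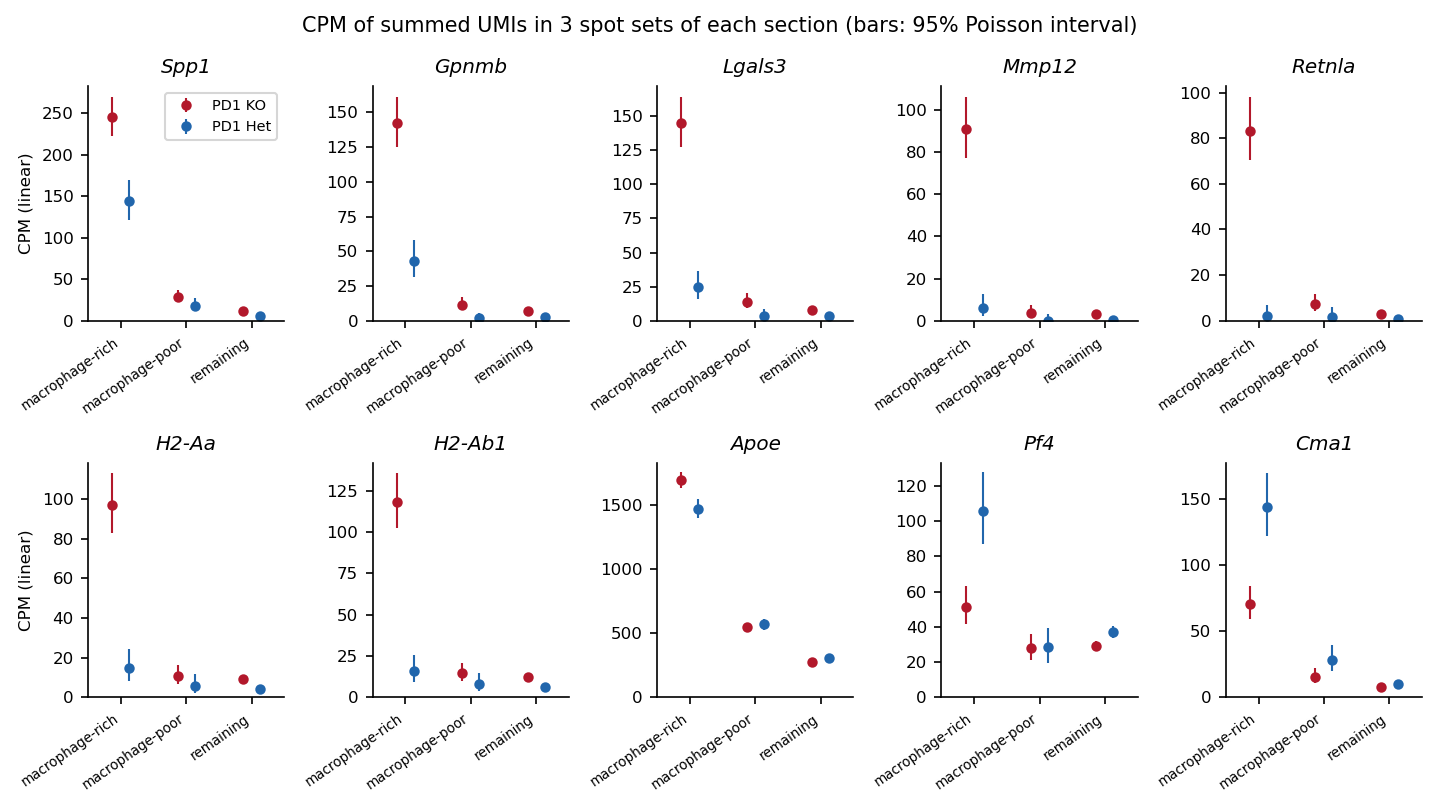
CPM (linear axes from 0) of 10 genes in the macrophage-rich scar, macrophage-poor matrix-rich and remaining spots, with PD1 KO in red at left of PD1 Het in blue within each set and 95% Poisson intervals as bars. Spp1, Gpnmb, Apoe and Cma1 are highest in the macrophage-rich scar spots of both sections, whereas Lgals3, Mmp12, Retnla, H2-Aa and H2-Ab1 stand out in the PD1 KO section and Pf4 and Cma1 reach more CPM in the PD1 Het section.

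Between the genotypes, 379 of 4251 tested genes (8.92%) were called higher and 247 (5.81%) lower in the PD1 KO macrophage-rich scar spots than in the PD1 Het ones, relative to a median gene that was 0.18 higher on the log2 scale in PD1 KO. Higher calls made up 60.5% of all calls, and 87.4% on plain CPM, 76.6% on CPM without mitochondrial genes, 53.0% with TMM factors and 51.9% with median-of-ratios factors. The sections differed in UMIs per spot and mitochondrial share as given above, and the part of these in the ratios was not tested. MHC class II genes were among those with large ratios. Macrophage-rich scar spots had 583 CPM in PD1 KO and 107 CPM in PD1 Het from the 7 listed genes, for a relative log2 ratio of 2.27 (1.98 to 2.56). In the remaining spots, relative to their own median gene (0.34 higher in PD1 KO), the ratio of the sections was 0.64, and the difference of both ratios was 1.63 (1.30 to 1.96). The 4 members with enough UMIs to be tested reached that minimum through the PD1 KO section, so their count of calls is not read. Cd74, the invariant chain gene, had 251 CPM in PD1 KO and 49.1 CPM in PD1 Het, a ratio of 2.17 (1.75 to 2.63). H2-Ab1, which encodes a class II beta chain, had 118 CPM in PD1 KO and 15.7 CPM in PD1 Het, a ratio of 2.73 (2.00 to 3.56). H2-Aa, the alpha chain gene, had 97.0 CPM in PD1 KO and 14.7 CPM in PD1 Het, a ratio of 2.54 (1.78 to 3.41), and H2-Eb1, a beta chain gene, had 87.9 CPM in PD1 KO and 16.7 CPM in PD1 Het. H2-DMb1, another gene of the class II list, had few UMIs, 14 in PD1 KO and 8 in PD1 Het.

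Class II UMIs were present in 72 of 85 PD1 KO and 38 of 81 PD1 Het macrophage-rich scar spots, with spot medians of 197 and 0 CPM and highest spots of 7604 and 2236 CPM, so the spots of the sections overlapped. The 5 top spots held 36.6% of these UMIs in PD1 KO and 56.0% in PD1 Het. At 5000 UMIs per spot the shares with a class II UMI were 60.7% in PD1 KO and 32.9% in PD1 Het macrophage-rich scar spots, against 17.8% and 11.9% in the remaining spots. The defining dendritic cell gene Flt3 had 1 UMI in PD1 KO and 2 in PD1 Het, while Itgax, the CD11c gene of dendritic cells and some macrophages, had 26.8 CPM in PD1 KO and 5.89 CPM in PD1 Het. The dendritic cell list summed to 52.0 CPM in PD1 KO and 32.4 CPM in PD1 Het, and the B cell list to 49.1 CPM in PD1 KO and 41.2 CPM in PD1 Het. Since the cut-offs were lower in the PD1 Het section, the PD1 KO cut-offs were also applied to both, which kept 85 PD1 KO and 35 PD1 Het spots. The class II ratio was then 1.54, with Cd74 at 1.37 and H2-Aa at 1.54.

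The promoters of class II genes carry conserved boxes, one of which, the Y box, is bound by the factor NF-Y. Because H2-Aa and H2-Eb1 were higher together, their RefSeq promoter windows (GRCm38.p6, 250 bases before to 50 after the start, 300 in all) were searched for the Y box letters CTGATTGG on both strands. They are shown with that of Spp1, the gene with the largest ratio to the remaining spots, where the same letters occur at the first of its annotated starts. H2-Aa lies at chr17:34287774-34288073 on the minus strand, H2-Eb1 at chr17:34305617-34305916 on the plus strand and Spp1 at chr5:104434861-104435160 on the plus strand. Capitals mark the Y box letters, which begin 51, 62 and 49 bases before the start of H2-Aa, H2-Eb1 and Spp1.
H2-Aa: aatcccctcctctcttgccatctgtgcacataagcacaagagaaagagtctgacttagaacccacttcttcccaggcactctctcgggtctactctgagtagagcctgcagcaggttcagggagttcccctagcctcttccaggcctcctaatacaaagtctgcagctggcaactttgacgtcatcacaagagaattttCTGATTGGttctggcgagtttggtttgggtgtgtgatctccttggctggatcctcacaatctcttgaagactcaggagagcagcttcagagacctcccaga
H2-Eb1: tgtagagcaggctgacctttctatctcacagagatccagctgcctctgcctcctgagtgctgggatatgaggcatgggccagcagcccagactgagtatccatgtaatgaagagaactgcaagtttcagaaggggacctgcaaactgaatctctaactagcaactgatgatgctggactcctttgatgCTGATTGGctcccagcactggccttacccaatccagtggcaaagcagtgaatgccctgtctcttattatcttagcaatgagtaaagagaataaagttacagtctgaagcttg
Spp1: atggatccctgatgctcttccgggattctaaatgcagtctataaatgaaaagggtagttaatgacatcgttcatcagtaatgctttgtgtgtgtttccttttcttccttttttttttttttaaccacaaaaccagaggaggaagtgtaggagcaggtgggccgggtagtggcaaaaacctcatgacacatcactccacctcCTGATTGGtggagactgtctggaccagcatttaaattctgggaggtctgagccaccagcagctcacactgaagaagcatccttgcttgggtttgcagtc
The letters or their reverse complement occur in 1346 of 32851 promoter windows (4.10%), and not in the windows of H2-DMa or H2-DMb1 or at the second start of Spp1. H2-Ab1, Cd74 and Ciita of the class II list were not searched. A match is a description and not a binding site.

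MHC class I genes, which present peptides to cytotoxic T cells, were higher to a smaller degree. Their sum was 1512 CPM in PD1 KO and 670.2 CPM in PD1 Het. Its relative log2 ratio was 0.99 (0.87 to 1.12), with a difference from the remaining spots of 0.58 (0.45 to 0.71). Of 4 tested genes 3 were called higher, against 8.92% of all genes tested. The list had 2648 UMIs in PD1 KO and 683 in PD1 Het. Its members could reach the UMI minimum through the PD1 KO section, so this count is not read. B2m, the class I light chain gene, had 611 CPM in PD1 KO and 263 CPM in PD1 Het, and H2-K1 had 384 CPM in PD1 KO and 129 CPM in PD1 Het. Class I genes resemble each other closely, so reads between them may be assigned uncertainly. Interferon gamma response genes summed to 206 CPM in PD1 KO and 123 CPM in PD1 Het, a ratio of 0.56 (0.27 to 0.87). Of their members the GTPase gene Irgm2 had 50 UMIs in PD1 KO and 5 in PD1 Het. The 1 tested member was called higher, at 0.68, against 8.92% of all genes tested. It could reach the UMI minimum through the PD1 KO section, so this call is not read. Irf1, an interferon regulatory factor gene, had a relative log2 ratio of -0.76. It was not the tested gene, so its ratio is a description. Type I interferon response genes had 466 CPM in PD1 KO and 515 CPM in PD1 Het, a ratio of -0.33 (-0.49 to -0.17), and chemokines had 315 CPM in PD1 KO and 200.2 CPM in PD1 Het, a ratio of 0.47 (0.24 to 0.71). The chemokine Ccl2 had 32 UMIs in PD1 KO and 5 in PD1 Het, and Ccl8 had 50 and 10, which came from 23 PD1 KO and 2 PD1 Het spots. Complement genes were called higher for 3 of 6 and lower for 2 of 6, against 8.92% and 5.81% of all genes tested. Sparse complement genes could reach the UMI minimum through the section where they were high, so this count is not read either.

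Several macrophage effector genes had larger ratios still, from few spots. Retnla, Mmp12 and Lgals3 reached the minimum of 100 UMIs through the PD1 KO section, where they were high, so their ratios are a description. Retnla, which encodes a secreted protein of alternatively activated mouse macrophages, had 146 UMIs in the PD1 KO and 2 in the PD1 Het macrophage-rich scar spots, a relative log2 ratio of 5.23 (3.35 to 8.29). Mmp12, the macrophage elastase gene, had 159 and 6 UMIs, a ratio of 3.77 (2.61 to 5.23). The 5 top spots held 66.4% of Retnla and 74.2% of Mmp12 UMIs in the PD1 KO section, and both had a spot median of 0 CPM in each section. Arg1, the arginase gene, had 62 UMIs in the PD1 KO section, 85.5% of them in 5 spots, and 1 in the PD1 Het section. Lgals3, the galectin-3 gene, was broader: it had 145 CPM in PD1 KO and 24.5 CPM in PD1 Het, was found in 66 of 85 PD1 KO and 14 of 81 PD1 Het spots, and had a ratio of 2.38 (1.79 to 3.04), with a difference from the remaining spots of 1.37 (0.59 to 2.15). After thinning to 5000 UMIs, Lgals3 was found in 48.8% of PD1 KO and 8.57% of PD1 Het macrophage-rich scar spots, Mmp12 in 20.2% and 1.43%, and Retnla in 19.0% and 1.43%. The remaining spots also had larger shares in PD1 KO. There Lgals3 was found in 4.84% of PD1 KO and 1.79% of PD1 Het spots, Mmp12 in 1.70% and 0.138%, and Retnla in 1.70% and 0.276%. With the PD1 KO cut-offs in both sections the ratios were 3.91 for Retnla, 2.44 for Mmp12 and 1.54 for Lgals3.

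Spp1 and Apoe did not follow them. Spp1 had 245 CPM in PD1 KO and 144 CPM in PD1 Het, a relative log2 ratio of 0.59 (0.31 to 0.87) that was 0.63 in the remaining spots. Its direction was not stable: the ratio was -0.36 when the tenth of spots richest in matrix was used, -0.21 with the PD1 KO cut-offs in both sections and -0.37 with all spots weighted equally. Apoe had a ratio of 0.02 (-0.07 to 0.11), which was -0.60 with the PD1 KO cut-offs in both sections. Mpeg1 (1.58 (1.03 to 2.18)) and Cd52 (1.60 (0.87 to 2.40)), a small surface glycoprotein gene of leukocytes, were among the 5 of 7 other myeloid markers called higher in PD1 KO. The list of these markers had 1397 UMIs in PD1 KO and 394 in PD1 Het. Its sparse members could reach the UMI minimum through the PD1 KO section, so this count of calls is not read. With those cut-offs the sum of that list was 0.34 in place of 0.86, and Mpeg1 0.89. Of the resident macrophage genes 0 of 6 were called higher and 2 of 6 lower in PD1 KO, and their sum had a ratio of -0.20 (-0.33 to -0.08), which was -0.67 with the PD1 KO cut-offs in both sections. Pf4 had 51.4 CPM in PD1 KO and 106 CPM in PD1 Het, a ratio of -1.23 (-1.65 to -0.81), and -0.67 (-0.85 to -0.49) in the remaining spots. F13a1, the coagulation factor XIII gene of resident macrophages, had 23 UMIs in PD1 KO and 42 in PD1 Het, a ratio of -1.83 (-2.63 to -1.06), and the folate receptor gene Folr2 had 18 and 22. Mrc1, the mannose receptor gene, had a ratio of 0.16 (-0.44 to 0.79). Lysosomal genes were called higher for 5 of 20, with a median of 0.26, and monocyte and injury macrophage genes higher for 4 of 8 and lower for 1 of 8. Sparse genes of the injury and resident lists could reach the UMI minimum through the section where they were high, so those counts are not read. The shares over all genes tested were 8.92% higher and 5.81% lower.

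The macrophage genes of the rule were themselves higher in the PD1 KO macrophage-rich scar spots. They had 2177 CPM (3814 UMIs) there and 1182.5 CPM (1205 UMIs) in the PD1 Het ones. The cut-off on their share was also higher in PD1 KO, at 0.0798% against 0.0499%. Levels were therefore also expressed per 100 UMIs of these genes. The denominator consists of genes that chose the spots, so these values are a description and support no direction. On this scale class II genes had 26.8 (25.2 to 28.5) in PD1 KO and 9.05 (7.43 to 10.9) in PD1 Het spots. Lgals3 had 6.66 (5.87 to 7.53) in PD1 KO and 2.07 (1.34 to 3.06) in PD1 Het, Mmp12 4.17 and 0.498, and Retnla 3.83 and 0.166. Lower values in PD1 KO were found for resident macrophage genes, with 37.1 (35.2 to 39.1) in PD1 KO and 69.5 (64.8 to 74.3) in PD1 Het, for Pf4 with 2.36 (1.90 to 2.90) and 8.96 (7.35 to 10.8), for lysosome genes with 392 and 555, for monocyte and injury macrophage genes with 109 and 159, and for Apoe with 77.9 and 124. Spp1 had 11.3 (10.2 to 12.4) in PD1 KO and 12.2 (10.3 to 14.3) in PD1 Het, and Trem2 2.65 (2.16 to 3.22) and 2.16 (1.41 to 3.16), with overlapping intervals. The genes of the denominator differed among themselves: Ctss had 10.4 in PD1 KO and 3.40 in PD1 Het, while Csf1r had 3.30 and 6.72.

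**Figure D4:**
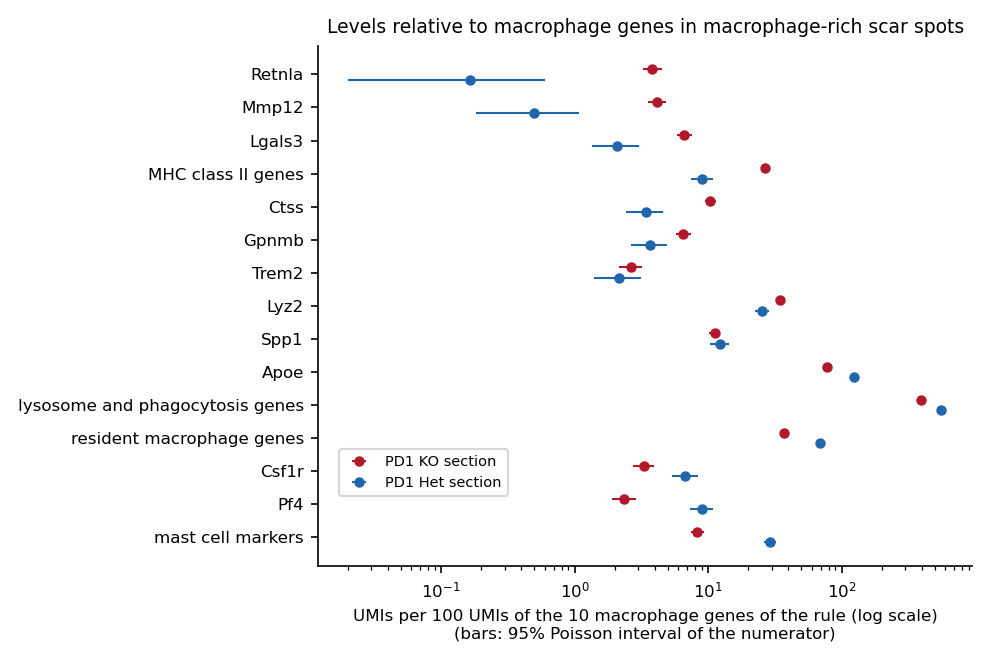
UMIs of genes and gene lists per 100 UMIs of the 10 macrophage genes of the rule in the macrophage-rich scar spots (log axis), with PD1 KO in red above PD1 Het in blue and 95% Poisson intervals of the numerator as bars; the denominator holds genes that chose the spots. Retnla, Mmp12, Lgals3 and class II genes lie further right in PD1 KO, Spp1 and Trem2 overlap, and resident macrophage genes, Pf4 and mast cell markers lie further right in PD1 Het.

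Matrix and fibroblast genes of the macrophage-rich scar spots differed between the sections in both directions. Of the collagens outside the rule 6 of 15 were called higher in PD1 KO, among them Col12a1 with 239 CPM in PD1 KO and 52.0 CPM in PD1 Het and Col11a1 with 90.8 CPM in PD1 KO and 19.6 CPM in PD1 Het. Col8a2, a short-chain collagen gene, had a ratio of 2.27 (1.44 to 3.22), and the thrombospondin genes Thbs4 and Thbs1 had 2.23 (1.80 to 2.69) and 2.08 (1.54 to 2.67). C1qtnf3, a secreted protein gene of the C1q/TNF family, had 2.36 (1.71 to 3.08). Among growth factor genes, Tgfb3 had 151 CPM in PD1 KO and 54.0 CPM in PD1 Het, a ratio of 1.31 (0.88 to 1.75) with a difference from the remaining spots of 1.22 (0.74 to 1.69), and Ccn2, the connective tissue growth factor gene, had 1.07 (0.71 to 1.45). Fibroblast markers of the adventitial type were lower: Pi16 had 111 CPM in PD1 KO and 314 CPM in PD1 Het, a ratio of -1.68 (-1.94 to -1.42), and Clec3b had -1.59 (-2.02 to -1.18), with 4 of 9 tested fibroblast markers called lower. Of the matricellular genes 7 of 18 were called higher and 2 of 18 lower, of the collagen processing genes 4 of 12 higher, of the growth factors and receptors 5 of 10 higher, and of the proteases and inhibitors 1 of 7 higher. Sparse members of these lists could reach the UMI minimum through the section where they were high. The counts of calls in this paragraph are therefore not read, and the ratios of sparse genes are a description. The shares over all genes tested were 8.92% higher and 5.81% lower. Tnxb, the tenascin-X gene, had -1.34, Eln -0.99, and Dpep1, Nupr1 and Gsta4 lay between -1.34 and -1.18. With the PD1 KO cut-offs in both sections the 8 matrix genes of the rule differed by 0.13 in place of 0.66, Col12a1 by 1.04 and Pi16 by -2.18. Other values that moved by over 1.5-fold with them were Col11a1 at 1.03, Col8a2 at 1.33, Thbs4 at 1.49, Thbs1 at 1.25, C1qtnf3 at 1.73, Tgfb3 at 0.68, Ccn2 at 0.36, Nupr1 at -2.03 and Eln at -1.80, and Ccn2 was then not called.

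Transcripts of other cells also differed between these spot sets, and their part in the macrophage and matrix differences was not tested. Nppa had 8553 CPM in PD1 KO and 1163 CPM in PD1 Het, a ratio of 2.70 (2.61 to 2.78) that was 2.09 in the remaining spots, and 8 of 12 stressed cardiomyocyte genes were called higher in PD1 KO. These included Clu, the clusterin gene (2.30), and Myh7, the slow myosin heavy chain gene (2.46). Pdk4, which limits glucose oxidation, had 2.37 and 2.20 in the remaining spots, and Cnn1, the smooth muscle calponin gene, 2.46 and 1.64. Epicardial markers summed to 244 CPM in PD1 KO and 87.3 CPM in PD1 Het, with the mesothelial gene Msln at 88 UMIs in PD1 KO and 8 in PD1 Het. Endocardial markers ran the other way with 136 CPM in PD1 KO and 259 CPM in PD1 Het, and Plvap, which forms diaphragms of endothelial pores, had a ratio of -1.55 (-2.11 to -1.0), against 0.03 in the remaining spots. Red blood cell genes summed to 2786 CPM in PD1 KO and 9495 CPM in PD1 Het. Of all genes tested between the genotypes, 8.92% were called higher and 5.81% lower, and the counts in this paragraph stand beside these shares. For lists with sparse members, which could pass the UMI minimum through the section where they were high, these counts are not read. Endothelial markers were called lower for 2 of 12, ventricular cardiomyocyte markers in 2 of 12 and pericyte markers in 0 of 6. Lymphatic and nerve markers had 1 tested gene each, both higher in PD1 KO. Hypoxia and glycolysis genes were called higher for 3 of 11 and lower for 1 of 11. Fatty acid oxidation genes were higher for 2 of 12, myofibroblast genes higher for 3 of 10 and lower for 1 of 10, and iron and haem genes 1 of 5 in each direction. Mast cell markers summed to 181 CPM in PD1 KO and 344 CPM in PD1 Het, a ratio of -1.11 (-1.33 to -0.89). The protease gene Tpsb2 had -1.66 and Cma1 -1.21, which was -2.04 without the top spot of each section. With the PD1 KO cut-offs in both sections the mast cell sum was -2.29, Cma1 -2.38, Fndc5 -1.02, Pdk4 4.51 and Pf4 -1.81. The lowest genes further included Fndc5, the precursor gene of irisin (-1.71), and Tm4sf1, an endothelial tetraspanin-like gene (-1.16).

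The macrophage-rich scar spots were not uniform within a section. Over the 85 PD1 KO and 81 PD1 Het spots, which share a library and whose shares are tied by a common total, the rank correlation of lysosomal genes with Apoe was 0.76 in PD1 KO and 0.80 in PD1 Het. That of matrix genes with ventricular cardiomyocyte markers was -0.82 and -0.72. For the macrophage genes of the rule with class II genes it was 0.52 in PD1 KO and 0.04 in PD1 Het, where class II UMIs were sparse. Matrix and macrophage genes of the rule chose the spots, so their correlations are a description and are not compared between the sections. In PD1 KO, the rank correlation of Spp1 was 0.52 with lysosomal genes, 0.49 with Lgals3, 0.46 with Mmp12 and 0.36 with class II genes. With Retnla it was -0.0055 and with Pf4 -0.27. In PD1 Het the same values were 0.39, 0.31, 0.28, -0.11, -0.11 and -0.07, and Mmp12 and Retnla were each found in 2 spots there. Spots with more matrix held fewer UMIs, with -0.42 in PD1 KO and -0.38 in PD1 Het.

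**Figure D5:**
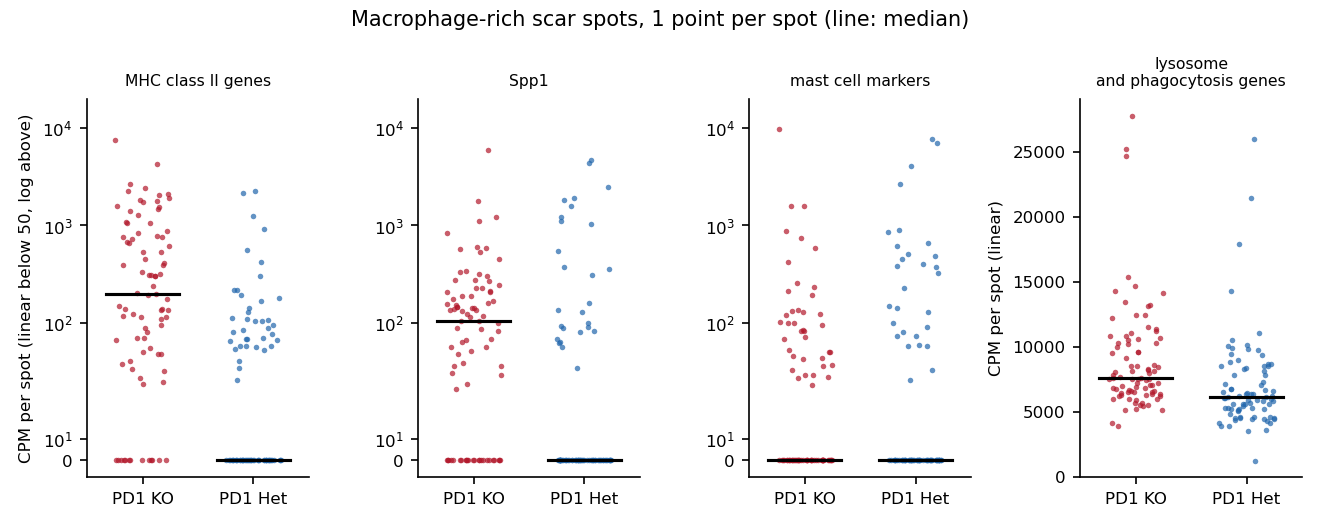
CPM per spot of class II genes, Spp1, mast cell markers (linear below 50, log above) and lysosome genes (linear) in each macrophage-rich scar spot, with PD1 KO in red at left and PD1 Het in blue at right and black lines at the median. Class II and Spp1 medians are above 0 in PD1 KO and 0 in PD1 Het, mast cell signal comes from few spots in both, and lysosome genes are present in nearly every spot.

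Besides Pdcd1, the PD-1 ligand genes were near the detection limit. Cd274, the PD-L1 gene, had 6 UMIs in the PD1 KO and 0 in the PD1 Het macrophage-rich scar spots, and Pdcd1lg2, the PD-L2 gene, had 1 in each. Foxp3 and Il10 had 0 UMIs in both. Of the listed regulators tested, 1 of 4 were called higher than in the remaining spots in PD1 KO and 0 of 3 in PD1 Het. The shares over all genes were 11.5% and 11.4%. Vsir, an inhibitory ligand gene of myeloid cells, had 41.7 CPM in PD1 KO and 38.3 CPM in PD1 Het, and Lgals9, the galectin-9 gene, had 50.8 CPM in PD1 KO and 58.9 CPM in PD1 Het. Cell cycle genes summed to 830.1, 782 and 797 CPM in the PD1 KO and 508, 533 and 518 CPM in the PD1 Het spot sets, with 1 of 22 tested genes called higher than in the remaining PD1 KO spots (11.5% of all genes) and 4 of 18 called lower in PD1 Het (8.76% of all genes). Between the macrophage-rich scar spots of the sections 5 of 9 were called higher in PD1 KO (8.92% of all genes), among them the topoisomerase gene Top2a with 1.36. The cell cycle list had 1454 UMIs in PD1 KO and 518 in PD1 Het. Its sparse members could reach the UMI minimum through the PD1 KO section, so this count is not read.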

How the data were processed

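Whole-section Visium libraries of 1 PD1 KO and 1 PD1 Het heart were analysed from the deposited matrices of UMI counts, made by the authors with Space Ranger (version 1.1.0 per the file headers) on mm10, per the submitters' processing notes. The counts are raw and hold barcodes over tissue: 859 in PD1 KO and 812 in PD1 Het, of which 851 and 811 had at least 500 UMIs. No doublet caller was run, since a spot can hold several cells, and no clustering was done. The spots and the 39 gene lists (472 genes, 2 of them without a match among 32285 genes) were chosen with earlier results of these data known.

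Counts were summed over each spot set, divided by all UMIs of the set (CPM) and compared as log2 ratios less the ratio of the median gene. Intervals are exact conditional Poisson intervals of 95% for ratios and Poisson intervals for levels; differences between ratios have Wald intervals. They cover counting error only, and with 1 section per group no replicated test could be run. edgeR 4.0.16 (R 4.3.3) gave only TMM factors for an alternative; all else used Python 3.11.15 with numpy 2.4.6, scipy 1.17.1 and pandas 2.3.3, and the steps were tested on simulated data. A call needed at least 100 UMIs over both spot sets and a 1.5-fold difference.

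Named genes were the 15 highest and 10 lowest against the remaining spots and the 10 highest and 10 lowest against the macrophage-poor spots, ranked by the ratio nearer 0 of the sections, the 12 highest and 12 lowest between the genotypes, and up to 4 genes of each list with at least 30 UMIs, leaving out rule genes, ribosomal and mitochondrial genes, those of red blood cells and sex-linked ones. Outside it, Adgre1, Cd163, Cd3e, Flt3, Foxp3, Gpnmb, H2-DMb1, H2-Eb1, Il10, Kit, Lyve1, Mrc1, Nkg7, Sox10, Timd4, Trac, Trem2 and Vsir were named after their values were seen. A few genes that the rule names are not reported here.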

Additional observations from a re-analysis of the deposited data

How the results depend on the processing

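Calls against the remaining spots numbered 2345 in PD1 KO and 1735 in PD1 Het. They became 3525 and 3030 with the tenth in place of the fifth of spots by matrix share, 5114 and 4832 with at least 1 UMI per gene in each spot set, 724 and 456 at 2-fold, and 3241 in PD1 Het with the PD1 KO cut-offs. Against macrophage-poor spots there were 292 in PD1 KO and 134 in PD1 Het: 177 in PD1 KO with the tenth, 211 in PD1 Het with fewer spots kept by macrophage share (57 in PD1 KO and 54 in PD1 Het), 758 and 489 at 50 UMIs per gene, 3339 and 3788 with 1 UMI, and 52 and 11 at 2-fold. Between the genotypes the 626 calls became 354 with the tenth, 1321 at 50 UMIs, 4419 with 1 UMI and 135 at 2-fold. Of the other values, 9272 moved by less than their counting interval, 1743 moved by more (changes of sign among values under the 1.5-fold threshold are not counted apart), and 19 past that threshold changed sign. Between the genotypes these were Spp1 at -0.36 with the tenth, -0.21 with the PD1 KO cut-offs and -0.37 with spots weighted equally; Fmod at -0.19, Ltbp2 at -0.020, Enpp1 at -0.15 and Srpx2 at -0.042 with the PD1 KO cut-offs; Acot2 at -0.052 with spots ranked after thinning; Sirpa at -0.072 with equal weights; the difference for lymphatic markers at -0.63 after thinning; and that for NK cell markers at 0.013 with the tenth, 0.25 with a larger share of spots by matrix share (106 PD1 KO and 101 PD1 Het spots) and 0.18 after thinning. Within PD1 Het they were the lymphatic sum, at 0.73 against the remaining spots after thinning and 0.31 against macrophage-poor spots with the tenth, the epicardial median at 0.60 with that larger share and 0.66 with equal weights, and Acot2 at 0.027 and Naa20 at 0.10 against macrophage-poor spots after thinning. The cause was not tested. The PD1 KO cut-offs in both sections and a minimum of 5000 UMIs per spot were chosen after seeing the data. No paired analysis was possible because each group had 1 section. Spots of 1 section share a library, so no value here shows how far hearts of 1 genotype differ from each other, and lists of sparse cell types rest on few UMIs at this depth.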
